A study of Mus musculus with 10 samples.

Results

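Cardiac calcium cycling genes encode the proteins that release calcium into the cytosol of a heart muscle cell at each beat, take it back up and set how fast both happen. The 9 genes described here were chosen by name from the functions of their proteins, and each was found in the deposited table by its symbol, so they are 9 of 24537 genes. They are Ryr2, Casq2, Trdn, Jph2 and Hrc, which belong to the release site of the sarcoplasmic reticulum, Atp2a2 and Pln, which belong to reuptake, Slc8a1, which carries calcium out of the cell, and Camk2d, a kinase that acts on several of the others. All 9 had an adjusted p, that is, a p from DESeq2 corrected by the Benjamini-Hochberg method over the genes tested.

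Bulk RNA sequencing covered hearts from 5 control and 5 iSOD2 mice, 10 in all, at an age of 6 weeks. Controls were Rosa26-rtTA2+/-;TRE-SOD2-shRNA-/- and iSOD2 mice Rosa26-rtTA2+/-;TRE-SOD2-shRNA+/-, so that all 10 carried the doxycycline-dependent transactivator and differed by 1 copy of the hairpin against Sod2. The dams of both groups were C57BL/6J mice that ate doxycycline chow from the start of pregnancy until birth, so the knockdown was limited to embryonic life. The transactivator is made from the ubiquitous Rosa26 locus, which does not restrict the knockdown to cardiomyocytes. There were 3 male and 2 female controls and 2 male and 3 female iSOD2 mice, and in either genotype the litter labelled A gave 2 mice and the litter labelled B gave 3. Mice are named by genotype and number.

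At each heartbeat, calcium that enters through the L-type channel opens the ryanodine receptor RYR2, and calcium stored on calsequestrin leaves the sarcoplasmic reticulum and activates the myofilaments. The heart muscle then relaxes as the pump SERCA2, the product of Atp2a2, returns most of that calcium to the store while the sodium-calcium exchanger NCX1, the product of Slc8a1, removes the rest. Phospholamban, the product of Pln, restrains the pump until it is phosphorylated, and CaMKII delta, the product of Camk2d, phosphorylates both phospholamban and the ryanodine receptor.

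In units of 1000000, libraries held 16.4 to 24.3 counts over genes, of which the 9 genes accounted for 2.89% to 3.3%. The tissue label was checked against 8 ventricular cardiomyocyte markers, which were high in every library (Myl2 97936 to 164370 counts, Myh6 711693 to 1191112), and their mean level differed between genotypes by -0.0012 on the log2 scale (exact permutation test, p = 1.0). Of 9 marker lists for cell types, 0 differed between genotypes after Benjamini-Hochberg adjustment and 1 had an exact p under 0.05, that of hepatocytes, at 7.92 ± 1.69 for controls against 9.49 ± 0.54 for iSOD2 hearts (mean log2 level, SD over 5 mice, exact permutation p = 0.0159, adjusted 0.143). Control 1 was the lowest for hepatocyte markers, at 5.03 beside 8.05 to 9.4 in the other 4 controls, and had 47.9 normalized counts of Alb beside 1610 to 14600 in the other 9 hearts. Without it the hepatocyte level of controls was 8.64 ± 0.561 and the difference 0.844 (exact permutation p = 0.0476, unadjusted). The library iSOD2 10 stood apart in transcripts of atrial cells. Myl7, the atrial light chain of myosin, had 372 normalized counts there and 1.25 to 5.87 in the other 9, and Sln, which encodes the atrial SERCA2 regulator sarcolipin, had 67.9 there and 0 to 0.988 in the other 9. Values that rest on iSOD2 10 are therefore given with and without it. Sod2, the target of the hairpin, was not called at this age (log2 fold change 0.03, adjusted p = 0.806).

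Sequences upstream of 3 members are shown because Ryr2 and Slc8a1 had the lowest genotype p-values among the 9 and Pln differed least. Each is the 250 bases before the transcription start in RefSeq GRCm38.p6, written 5′ to 3′ on the strand of the gene. Windows were found for 7 of the 9 members, 8 windows in all, and not for Atp2a2 or Trdn. Ryr2 is at chr13:12106946-12107195, minus strand, with capitals marking the E-box letters CANNTG. Slc8a1 is at chr17:81738388-81738637, minus strand, and Pln at chr10:53337436-53337685, plus strand, both with capitals marking GATAAG, letters that GATA factors can bind.
Ryr2: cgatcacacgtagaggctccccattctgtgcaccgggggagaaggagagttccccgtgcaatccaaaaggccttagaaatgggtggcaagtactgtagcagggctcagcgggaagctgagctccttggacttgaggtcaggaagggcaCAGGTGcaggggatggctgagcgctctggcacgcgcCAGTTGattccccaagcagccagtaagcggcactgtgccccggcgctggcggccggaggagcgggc
Slc8a1: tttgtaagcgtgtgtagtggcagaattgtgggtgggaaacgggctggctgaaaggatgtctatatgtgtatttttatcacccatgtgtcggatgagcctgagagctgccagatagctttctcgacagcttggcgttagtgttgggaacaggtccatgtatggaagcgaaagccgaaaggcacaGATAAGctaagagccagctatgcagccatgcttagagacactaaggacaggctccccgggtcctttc
Pln: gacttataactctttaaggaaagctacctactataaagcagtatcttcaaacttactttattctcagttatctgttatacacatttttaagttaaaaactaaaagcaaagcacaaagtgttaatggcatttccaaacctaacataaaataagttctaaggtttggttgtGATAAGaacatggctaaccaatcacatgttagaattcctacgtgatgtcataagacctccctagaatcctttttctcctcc
Searched on both strands, CANNTG was in 7 of the 8 member windows and in 66.2% of 32851 windows of the same length. GATAAG was in 2 of the 8, those of Pln and Slc8a1, and in 6.55% of all windows. TATAAA was in 1 of the 8, that of Pln, and in 12.4% of all windows. The copies shown begin 102 and 66 bases before the start of Ryr2, 67 before that of Slc8a1 and 81 before that of Pln. These are matches of letters and say nothing of binding in these hearts.

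The levels of the 9 transcripts, in TPM (transcripts per 1000000, computed from the counts and the exon length in the table), spanned a wide range with reuptake at the top. Atp2a2 had 7338 TPM ± 585 (SD, n = 10 mice) and stood in place 12 of 24537 genes. This level rests on the 5704 bp of the transcript counted for Atp2a2, and the effect of that choice was not tested. Pln had 4614 TPM, with a range of 4213 to 4921, and stood in place 20. The pump and its inhibitor were thus the most abundant members in every heart. The deposited table held 0 genes of the mitochondrial chromosome, so TPM values and places leave those transcripts out.

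The release channel followed, with Ryr2 at 1294 TPM ± 112 in place 89. Casq2, whose product binds calcium in the lumen of the store, had 1040 TPM ± 73.1, and Hrc, which encodes a further calcium-binding protein of the lumen, had 847.9 TPM ± 76.4. The ranges of Ryr2 and Casq2 overlapped, as did those of Casq2 and Hrc, although within a heart the first of each pair was above the second in 10 of 10 mice. Jph2, which encodes the junctophilin that holds the store close to the cell membrane, had 297.2 TPM ± 15.1, and Slc8a1 had 181.4 TPM ± 16.7. Camk2d had 108.0 TPM ± 9.86 and Trdn, which encodes triadin, the anchor between calsequestrin and the channel, had 100.5 TPM ± 11.7. Camk2d and Trdn did not differ beyond their spread, with Camk2d the higher in 7 of 10 mice, and all other neighbours in this order had ranges that did not overlap.

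**Figure D1:**
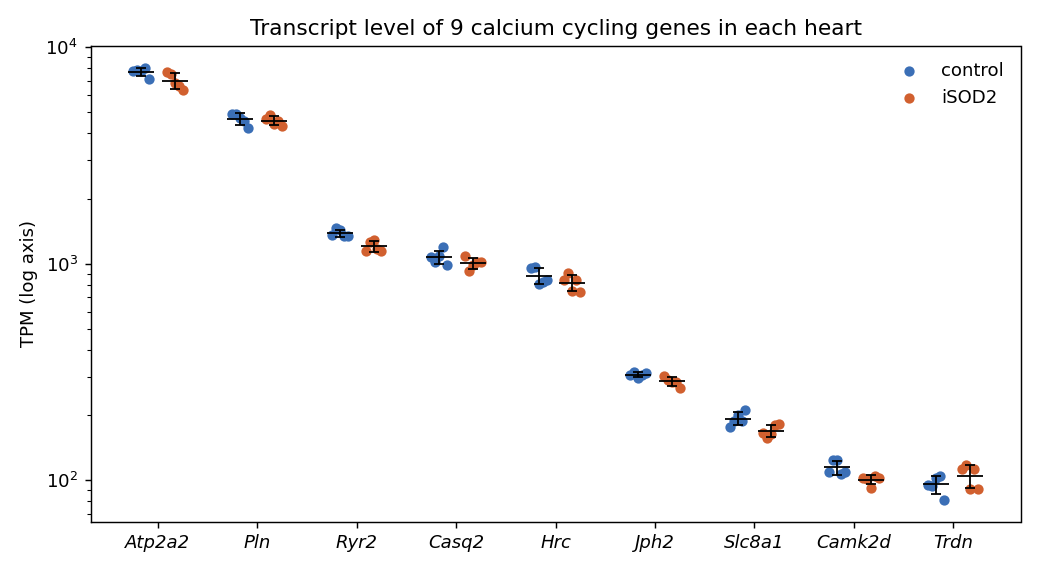
Level of each member in each heart in TPM (vertical log axis), with genes in order of mean level, 1 point per mouse, controls in blue, iSOD2 mice in orange, and bars for the mean ± SD of 5 mice. The order from Atp2a2 (7338 TPM) to Trdn (100.5 TPM) is the same in both genotypes apart from the last pair, Camk2d and Trdn.

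The genotypes were compared to ask whether a knockdown of Sod2 confined to the embryo went with a different level of calcium cycling transcripts in the young adult heart. By the rule of the study's methods (DESeq2 adjusted p at most 0.05 and an absolute log2 fold change above 0.25), 0 of the 9 members were called, against 2.96% of 9479 genes tested. At an adjusted p of at most 0.05 with no threshold on the fold, 1 of 9 passed, against 6.09% of genes, and at an unadjusted p under 0.05, 3 of 9, against 13.2% of genes fitted. By edgeR's quasi-likelihood test 0 members were called, 3 had an unadjusted p under 0.05 and the adjusted p ran from 0.22 to 0.973. Over the 17728 genes fitted, 0 were called by edgeR and 2718 had an unadjusted p under 0.05. Of the 9, 7 had a lower mean in iSOD2 hearts and 2 a higher one, with a median log2 fold change of -0.07, beside -0.0045 and 51.5% lower over 12151 genes whose mean normalized count was 50 or more. The 95% intervals of all 9 lay between differences of -17.14% and 29.11%. In bulk tissue, fewer cells of a type and less RNA per cell cannot be told apart.

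Ryr2 (NM_023868, chr13:11553103-12106945 in mm10, minus strand) was the member that passed the adjusted threshold. Its normalized counts were 171115, 186504, 176827, 167578 and 166715 in controls 1, 2, 3, 4 and 6. In iSOD2 mice 5, 7, 8, 9 and 10 they were 147875, 166488, 164922, 150665 and 145651. Every iSOD2 heart was below every control, though iSOD2 7 missed the lowest control by little. Groups that did not overlap were found for 1 of 9 members and for 5.71% of genes with an adjusted p. The log2 fold change was -0.16 ± 0.05 (SE, adjusted p = 0.0427), which is short of the fold threshold. Without iSOD2 10 the log2 fold change of Ryr2 was -0.14 and the adjusted p 0.134.

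The other release genes showed no difference beyond the spread between mice. Normalized counts of Casq2 (NM_009814, chr3:102086455-102146512) were 20115 ± 1399 for the controls against 19425 ± 952 for the iSOD2 hearts (SD over 5 mice), which gave a log2 fold change of -0.05 with an adjusted p of 0.673. Jph2 (NM_021566, chr2:163336242-163397973) had 9770 ± 342 and 9344 ± 521, with a log2 fold change of -0.06 and an adjusted p of 0.484. Hrc (NM_010473, chr7:45335269-45338972) had 16019 ± 1619 and 15248 ± 1509, with a log2 fold change of -0.07 and an adjusted p of 0.682. Jph2 was the steadiest member, with an SD over the 10 mice of 0.0723 on the log2 scale, and 3 of the 9 were below 0.103, the median SD of 3251 genes whose mean normalized count was 1000 or more.

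Trdn (NM_029726, chr10:33083483-33476709) had the largest fold change and the largest spread of the 9, an SD of 0.189 on the log2 scale. Normalized counts were 3246, 3247, 3419, 3471 and 2695 in the controls and 3927, 4189, 3125, 3860 and 3099 in iSOD2 mice 5, 7, 8, 9 and 10. The groups overlapped, since iSOD2 8 and 10 lay among the controls while iSOD2 5, 7 and 9 lay above all of them. The log2 fold change of Trdn was 0.18 ± 0.10 (SE, adjusted p = 0.283). Within males alone, 3 controls against 2 iSOD2 mice, the log2 fold change of Trdn was 0.28 with an adjusted p of 0.0111, which made 1 of 9 members called against 2.98% of 5066 genes tested there, and within females it was 0.13 with an adjusted p of 1.0. The difference between the sexes, tested as an interaction, was -0.15 on the log2 scale with an adjusted p of 1.0.

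Neither reuptake gene was called between genotypes. Atp2a2 (NR_027838, chr5:122453513-122502225, minus strand) had 334073, 343701, 328687, 339662 and 300812 normalized counts in the controls and 338165, 338172, 297883, 289719 and 273520 in the iSOD2 mice. The iSOD2 hearts lay on both sides of the lowest control, and their SD, 9.54% of the mean, was above the 5.15% of controls. The log2 fold change was -0.10 ± 0.07 (SE, adjusted p = 0.431), and -0.06 without iSOD2 10, the lowest heart for Atp2a2 (adjusted p = 0.692). Pln (NM_001141927, chr10:53337686-53345999) had 86663 ± 6501 and 87224 ± 5578 normalized counts, the smallest difference of the 9, with a fitted log2 difference of 0.01 ± 0.06 (SE, adjusted p = 0.961) and a 95% interval from -0.12 to 0.13. Exons of Pln share 1644 bp with Gm47644 and 141 bp with Cep85l on the opposite strand, and no strand option was stated for the counting, so reads of these genes may be included.

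The exchanger and the kinase had lower means in iSOD2 hearts, with adjusted p-values above 0.05. Slc8a1 (NM_011406, chr17:81373105-81738387, minus strand) had 24944, 26731, 27744, 25957 and 29128 normalized counts in the controls and 23901, 23221, 23280, 25608 and 25791 in the iSOD2 mice. The top iSOD2 hearts, 9 and 10, overlapped the lowest control, control 1, and the log2 fold change was -0.14 ± 0.05 (SE, adjusted p = 0.0912). The adjusted p of Slc8a1 was 0.0311 with litter as a covariate, 0.0292 with hepatocyte marker level as a covariate and 0.0460 without control 1. Camk2d (NM_001346635, chr3:126596951-126846326) had 4710, 5407, 5196, 4505 and 4600 in the controls and 4508, 4559, 4016, 4574 and 4394 in the iSOD2 mice, which gave a log2 difference of -0.15 ± 0.06 (SE, adjusted p = 0.152). For Camk2d, 3 of the 5 iSOD2 hearts were above the lowest control and none was above the second lowest.

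**Figure D2:**
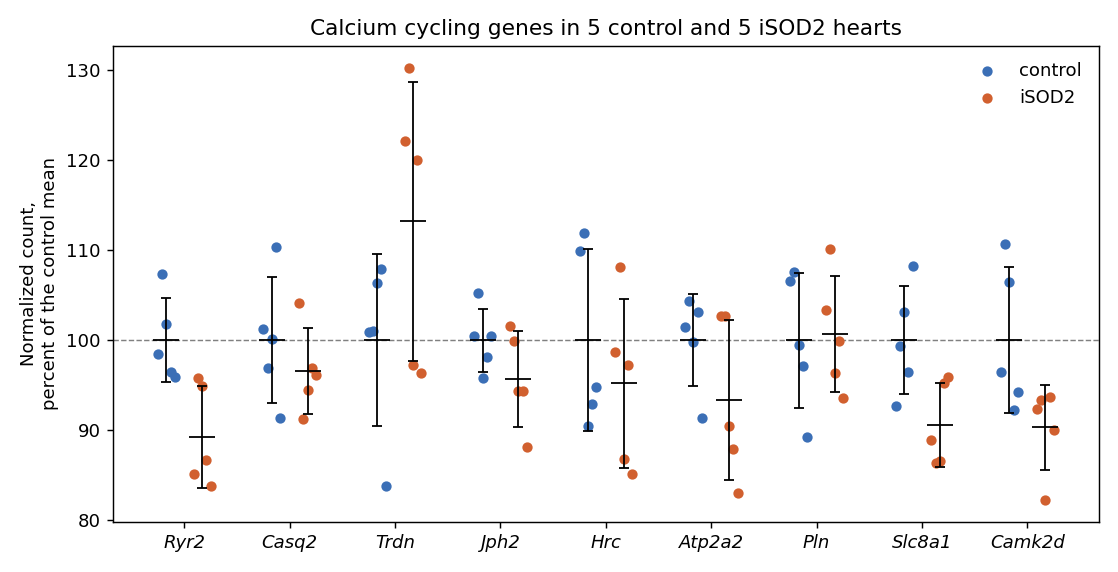
Normalized count of each member in each heart as a percent of the mean of the 5 controls (vertical axis), 1 point per mouse, controls in blue, iSOD2 mice in orange, with bars for the mean ± SD. Ryr2 is the gene whose groups do not overlap, and Trdn has iSOD2 hearts both above and among the controls.

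Libraries of the genotypes differed in how counts depended on exon length, and Ryr2 and Slc8a1 have by far the longest exons of the 9, 16706 and 18596 bp, beside 2422 bp in Hrc and 5704 bp in Atp2a2. The slope of log2 counts, relative to the mean of all libraries, on log2 exon length was 0.0063 to 0.0527 in controls and -0.051 to -0.018 in iSOD2 libraries, with no overlap (exact permutation p = 0.00794, the smallest that 252 arrangements allow). Over the 29 other genes with exons of 15000 to 20000 bp that passed the same minimum of 50, the median log2 fold change was -0.11, the range -0.52 to 0.42, and 26 were lower in iSOD2 hearts. Over 2706 other genes of 2000 to 3000 bp the median was 0.0127. Ryr2 at -0.16 and Slc8a1 at -0.14 lay below the median of the 29 and within their range, which is wide enough to hold all 9 members.

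When the length trend of each library was removed, the log2 fold change of Ryr2 was -0.00 (adjusted p = 0.992) and its groups overlapped. Over the 41 genes with exons of at least 15000 bp, Ryr2 and Slc8a1 among them, the median went from -0.11 to 0.06. At this length the removal thus took out more than the median difference, which limits what the values of Ryr2 and Slc8a1 after it can show. After the removal the log2 fold change of Slc8a1 was 0.03 (adjusted p = 0.926) and that of Camk2d -0.09 (adjusted p = 0.591). Trdn, of 4474 bp, had a log2 fold change of 0.21 after the removal (adjusted p = 0.318). After it, 0 of 9 members were called, against 1.42% of 9823 genes tested. Groups that did not overlap were found for 0 of 9 members, a count given without the share over all genes. The part of RNA quality or library making in the length trend was not tested.

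**Figure D3:**
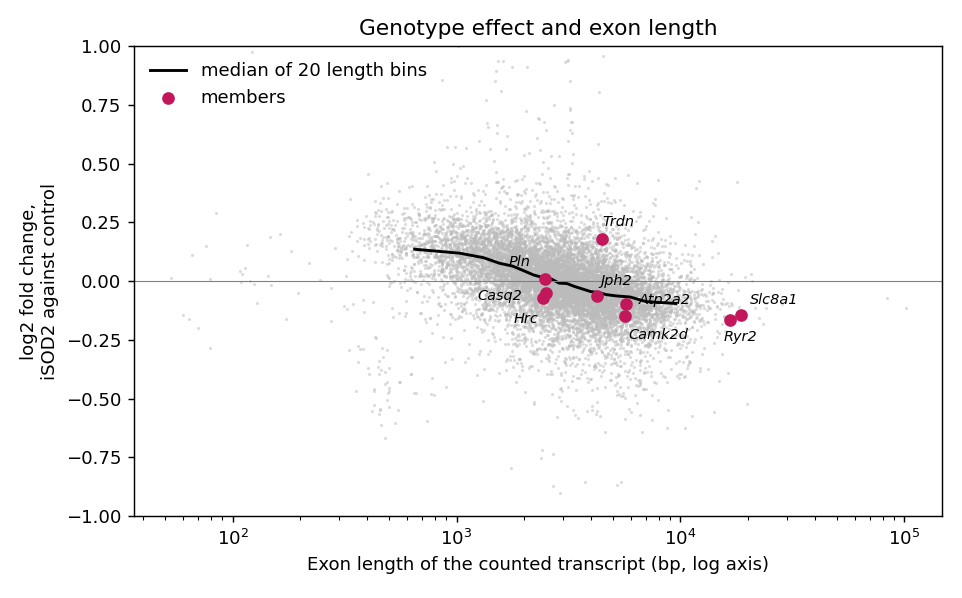
Log2 fold change of iSOD2 against control hearts (vertical axis) by exon length of the counted transcript (horizontal log axis, bp) for 12151 genes whose mean normalized count was 50 or more (grey), of which 74 lie outside the plotted range, with the medians of 20 length bins (black line) and the 9 members (red). The line falls with length, and Ryr2 and Slc8a1, the longest members, lie past its right end at -0.16 and -0.14.

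**Figure D4:**
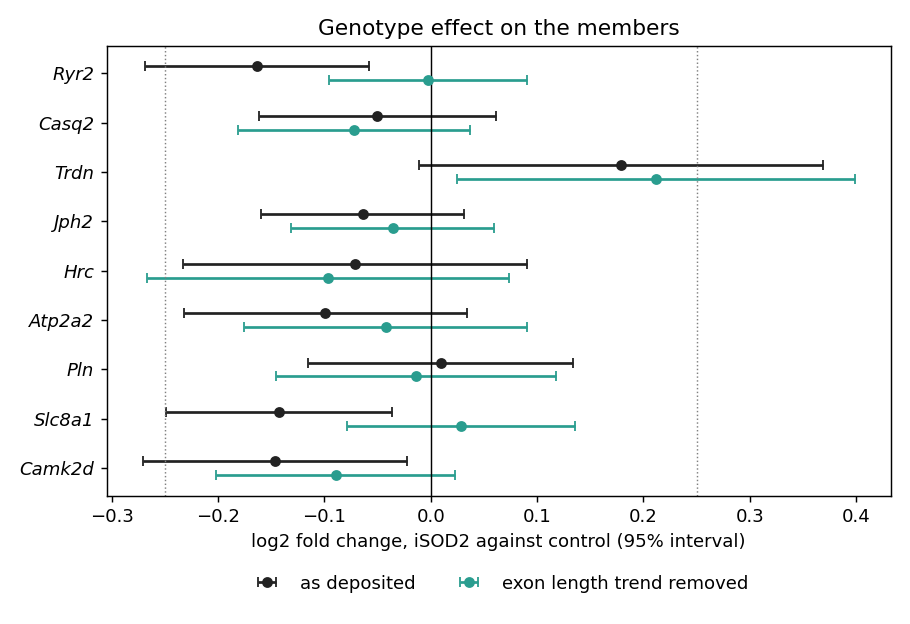
Log2 fold change of each member between genotypes with its 95% interval (horizontal axis), from the counts as deposited (black) and after removal of the exon length trend of each library (green), with dotted lines at the fold threshold of 0.25. Ryr2 moves from -0.16 to -0.00 and Slc8a1 from -0.14 to 0.03.

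Ratios of transcripts within a mouse were compared because the balance of pump, inhibitor, channel and exchanger bears on calcium handling. Per unit of exon length, the ratio of Pln to Atp2a2 was 0.637, 0.625, 0.604, 0.571 and 0.593 in the controls and 0.61, 0.65, 0.646, 0.688 and 0.684 in the iSOD2 mice. In 4 of 5 iSOD2 hearts it was above every control. The log2 difference was 0.11, with an exact permutation p of 0.0397 and 0.119 after Benjamini-Hochberg adjustment over the 3 ratios. After removal of the length trend the difference was 0.03 (exact permutation p = 0.484). With the trend left in but without iSOD2 10, the log2 difference of this ratio was 0.098 (exact permutation p = 0.0714). The exact permutation p was also above 0.05 without control 3, 4 or 6 or iSOD2 7, 8 or 9. The ratio of Ryr2 to Atp2a2 differed by -0.06 (exact permutation p = 0.413) and that of Slc8a1 to Atp2a2 by -0.04 (exact permutation p = 0.73).

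Around the 9 members stood 65 other calcium handling genes, listed by function, of which 64 were in the table. Between genotypes 2 of the 64 were called, of which 55 had an adjusted p, against 2.96% of genes tested, so the list stood near the background. Both were higher in iSOD2 hearts, where 1.27% of genes tested were called higher. Of the 64, 22 had a higher mean and 42 a lower one, with a median log2 fold change of -0.03. S100a1, which encodes a calcium sensor that binds the ryanodine receptor and SERCA2, had 5690, 5428, 4583, 5899 and 5507 normalized counts in the controls and 7291, 6596, 6862, 6155 and 5889 in the iSOD2 mice. Its log2 fold change was 0.27 ± 0.08 (SE, adjusted p = 0.0135), and iSOD2 10 lay just under the highest control. Smdt1, which encodes EMRE, an essential subunit of the mitochondrial calcium uniporter, had 874, 768, 881, 898 and 826 in the controls and 1118, 1032, 1132, 965 and 944 in the iSOD2 mice, with no overlap. Its log2 fold change was 0.29 ± 0.07 (SE, adjusted p = 0.00416). Exons of Smdt1 share 245 bp with Pheta2 on the same strand, which had no counts of its own, so reads of Pheta2 may be included. After removal of the length trend, S100a1 was at 0.12 (adjusted p = 0.598) and Smdt1 at 0.13 (adjusted p = 0.475), and with edgeR their adjusted p was 0.12 and 0.0786, so neither was called by these analyses.

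By function, 4 of 14 partners of the release site had a higher mean in iSOD2 hearts and 10 a lower one, with S100a1 the 1 called. An unadjusted p under 0.05 was found for 11 of the 64, against 13.2% of all genes fitted. Of 18 kinase and phosphatase genes, 0 were called and 6 had such a p, 5 lower and 1 higher, among them Prkar1a, which encodes a regulatory subunit of protein kinase A (log2 fold change -0.20, adjusted p = 0.0773), and Ppp1ca, which encodes a catalytic subunit of protein phosphatase 1 (0.10, adjusted p = 0.0658). All 4 genes of the calcium trigger at the cell membrane had a lower mean and 0 were called. Cacna1c, the pore of the L-type channel, was at -0.17 (adjusted p = 0.198), with its lowest count in iSOD2 10, at 9222, beside 10724 to 12938 in the other iSOD2 hearts, and at -0.11 without that library, and Cacna2d1, an auxiliary subunit, was at -0.09 (adjusted p = 0.605). Their exons span 13291 bp in Cacna1c and 7431 bp in Cacna2d1. The values and the counts of higher and lower means given by function were taken with the length trend left in.

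Of 9 genes for extrusion and sodium transport, 2 had a higher mean and 7 a lower one, 0 were called, and Atp1b1, which encodes a beta subunit of the sodium pump, was at -0.15 (adjusted p = 0.195). Of 8 genes of uptake and storage in the table, 4 had a higher mean and 4 a lower one, and 0 had an unadjusted p under 0.05, with Srl at -0.07 (adjusted p = 0.290) and Tmem38b at -0.13 (adjusted p = 0.524). Store-operated entry, with Stim2 at 0.05 (adjusted p = 0.795) and Orai1 at -0.01 (adjusted p = 0.948), had 0 of 3 genes called. Of 8 genes of mitochondrial calcium, 5 had a higher mean and 3 a lower one, and Smdt1 was the 1 called.

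Males and females, 5 mice each, were compared with genotype as a covariate, as were the litters. The females were iSOD2 8 in litter A, and controls 4 and 6 and iSOD2 5 and 10 in litter B. Sex and litter were thus not balanced against each other. Neither model held the other factor, so sex and litter differences cannot be fully told apart here. Between the sexes 0 of the 9 members were called, against 0.483% of 16348 genes tested. An unadjusted p under 0.05 was found for 4 of the 9 and for 1170 of the 17728 genes fitted. The 4 were Pln at -0.13 ± 0.05 (SE, adjusted p = 0.377), Hrc at -0.17 ± 0.07 (adjusted p = 0.496), Camk2d at -0.12 ± 0.06 (adjusted p = 0.553) and Trdn at -0.18 ± 0.09 (adjusted p = 0.680), all with the lower mean in females. For each of the 9 the ranges of the sexes overlapped, and the share of all genes with such overlap is not given. The interaction of genotype and sex was called for 0 of 17725 genes, of which 210 had an unadjusted p under 0.05, none of them a member.

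The litters, A with 4 mice and B with 6, both held controls and iSOD2 mice. Between litters 0 of the 9 members were called, against 3.5% of 15654 genes tested. An unadjusted p under 0.05 was found for 4 of the 9 and for 2297 of the 17728 genes fitted. Ryr2 had the lowest adjusted p, at a log2 difference of -0.12 ± 0.04 (SE, litter B against A, adjusted p = 0.0994). Its genotype difference was -0.11 within litter A and -0.20 within litter B, and with litter as a covariate its adjusted p was 0.00387. Hrc was at -0.16 between litters (adjusted p = 0.240), Pln at -0.11 (adjusted p = 0.303) and Slc8a1 at 0.10 (adjusted p = 0.25). Hrc starts 159 kb beyond a stretch of chromosome 7 from Nosip to Slc17a7 (chr7:45062429-45176139) in which 9 of 9 genes were called lower in litter B (0.977% of all genes tested were), with a median log2 fold change of -0.75. The stretch, like the gene lists, was chosen with earlier results of these data known, so its 9 of 9 gives no separate support. Any link between it and the litter difference of Hrc was not tested.

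**Figure D5:**
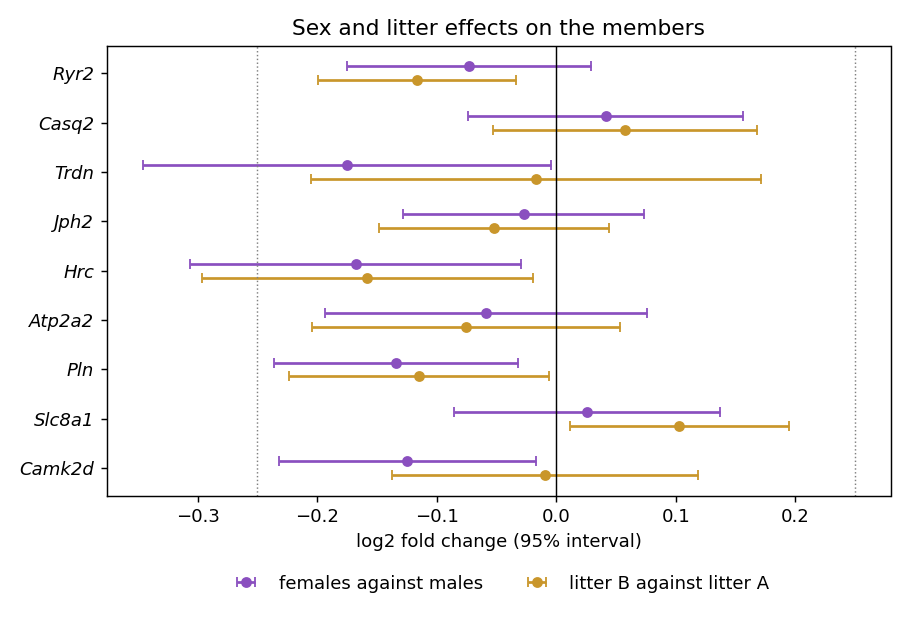
Log2 fold change of each member for females against males (purple) and for litter B against litter A (ochre) with 95% intervals (horizontal axis), and dotted lines at 0.25. Every estimate lies within the dotted lines, and Hrc and Trdn reach furthest below 0.

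Among the other calcium handling genes, 2 of the 64 were called between litters, Casq1 and Akap5, which are named after their values were seen. That is 2 of 64 against 3.5% of all genes tested, so the list stood no higher than the background. Casq1 encodes the calsequestrin of fast skeletal muscle, and its mean TPM was 39.1 times below that of Casq2. Normalized counts of Casq1 in litter A were 519 and 475 in controls 1 and 2 and 545 and 661 in iSOD2 7 and 8. In litter B they were 253, 292 and 230 in controls 3, 4 and 6 and 245, 360 and 196 in iSOD2 5, 9 and 10. The litters did not overlap, the log2 fold change was -1.06 ± 0.14 (SE, adjusted p = 3.15e-11), and Casq1 was called in 17 of 17 alternative analyses. Of 7 skeletal muscle markers, the myosins Myh4, Myh1 and Myh2 had 0 to 1, 0 to 4 and 0 to 3 counts, while Tnni2 had 23.5 to 44.5, Mylpf 4 to 32.5, Tnnt3 3.5 to 14 and Actn3 3.5 to 12. The mean level of the 6 that passed the count filter was 2.83 to 3.46 in litter A and 2.28 to 2.96 in litter B (log2 scale), whose part in the Casq1 difference was not tested. Akap5, an anchoring protein for protein kinase A, was at 0.51 (adjusted p = 0.0112) and was not called with edgeR (adjusted p = 0.0691) or without control 1 (adjusted p = 0.154).

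For Atp2a2, Ryr2 and Pln, the genes whose pattern over the 10 hearts was nearest were found by the root mean square difference of centred log2 values among 12142 genes. For Atp2a2 they were Ywhag (0.0238), Ubr2 (0.0255) and Zhx2 (0.0436). For Ryr2 they were Prdm2 (0.0349), Rassf8 (0.0371) and Nek9 (0.0377), and for Pln they were Gnas (0.0309), Klhl41 (0.0414) and Psmc6 (0.0415). No member was as near to any of the 3, but the nearest genes were picked from 12142 and the nearest member from 8. That member was Jph2 for each, at 0.0686 from Atp2a2, 0.0882 from Ryr2 and 0.0799 from Pln. Jph2 was the steadiest member, and a flat line would lie at 0.112 from Atp2a2, 0.109 from Ryr2 and 0.0905 from Pln. These distances describe 10 libraries that share scaling and depth, and no test was run on them.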

How the data were processed

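Total RNA of hearts was depleted of ribosomal RNA and sequenced with a stranded kit. Per the study's methods, the authors aligned reads to mm10 with STAR and counted them with HOMER, the tools that the submitters' processing notes name, and trimmed adapters where present. What the authors deposited per gene was an expected count or estimated count, in steps of 0.5 and not normalized, with 1 transcript per gene, and no strand option was stated. The deposited table also gives another unit, the exon length of that transcript. Counts were rounded. Genotype, sex and litter came from the labels. Each library is a separate mouse by its label, and p-values measure the spread between these mice.

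Genes with under 10 counts summed over 10 libraries were dropped, which left 17728. DESeq2 1.42.0 in R 4.3.3 (Wald test, Benjamini-Hochberg adjustment, no covariate) gave the main result, and edgeR 4.0.16 an alternative. Litter and sex were each tested in a model with genotype, and the interaction in a model with genotype and sex. Intervals are 95% (1.96 SE), and normalized counts use DESeq2 size factors. Library depth, in units of 1000000 counts, was 19.8 ± 2.60 for controls against 22.1 ± 1.56 for iSOD2 mice, and the spread between mice includes counting error, which weighs most for genes with few counts. The lowest chi-square per degree of freedom over 45 pairs of libraries was 5.71, so no library was a copy of another. Ratios, marker levels (mean log2 of the normalized count plus 1) and slopes were compared with exact two-sided permutation tests over 252 arrangements. The length trend was removed by offsets per gene and library. The models were tested on simulated data. GC content was found for 99.01% of genes.

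Members, gene lists and tests were chosen with earlier results of these data known. The text names the 9 members, every other calcium gene called between genotypes, otherwise up to 2 per list by p, and the 3 genes most like Atp2a2, Ryr2 and Pln. A gene that this rule picks is not reported here. Strit1 was not found in the table, and Mcub was matched as Ccdc109b. Alternatives were TMM scaling, other count filters, no fold threshold, sex, litter or hepatocyte level as covariates, each sex or litter alone, removal of length or length and GC trends, and leaving out each mouse.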

Additional observations from a re-analysis of the deposited data

Results flagged for a closer look

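Values of 68 groups of 5 mice were examined for a mouse far from the others, measured as the gap to its nearest neighbour over the whole range of the group, with a critical ratio of 0.71. Chance alone gives about 3.4 such groups, and 2 were found, neither of them a member. Sod2 in control 6, at 9562 normalized counts, was the lowest control (ratio 0.747). Ppp1ca in iSOD2 5, at 4389, was the lowest iSOD2 heart (ratio 0.781).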

How the results depend on the processing

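The count of members called between genotypes was 0 in the main analysis and 0 under all alternatives but 2, with 1 called without a fold threshold (Ryr2) and 1 in males alone (Trdn), where 2.98% of genes tested were called. Leaving out each mouse in turn gave 0 members called in each case for genotype, sex, litter and the interaction. The adjusted p of Ryr2, 0.0427, was 0.0819 with sex as a covariate, 0.22 with edgeR, and above 0.05 without control 1 (0.0753), 2 (0.148) or 3 (0.184) and without iSOD2 5 (0.119), 9 (0.10) or 10 (0.134). Other calcium genes called, 2 in the main analysis, were 0 with edgeR, with the length trend or the length and GC trends removed, and in litter B, males or females alone, 1 with sex and litter covariates, and 1 to 3 when each mouse was left out. S100a1 was lost without control 3 (adjusted p = 0.0629), iSOD2 5 (log2 fold change 0.23) or iSOD2 8 (adjusted p = 0.0524).

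Some differences changed sign. Those of Ryr2 and Slc8a1, with the lowest genotype p-values of the 9 members, and of Tmem38b were not near 0 in the main analysis, at -0.16, -0.14 and -0.13. With the length trend removed, Pln was at -0.014 and Slc8a1 at 0.028, and with GC as well Ryr2 was at 0.0051, Pln at -0.025 and Slc8a1 at 0.033. In litter A alone Pln was at -0.052 and Orai1 at 0.12, and in litter B alone Hrc was at 0.013 and Cacna2d1 at 0.034. With the hepatocyte covariate Hrc was at 0.053 and Stim2 at -0.027. In females alone Tmem38b was at 0.054 and Stim2 at -0.087, and in males alone Orai1 was at 0.061. Between litters, with genotype and sex as covariates, Trdn was at 0.074 and Camk2d at 0.053. Between sexes, with genotype and litter as covariates, Slc8a1 was at -0.0195. In the interaction with litter as a covariate Atp2a2 was at -0.012 and Ryr2 at -0.014. With the length trend removed the ratio of Pln to Atp2a2 differed by 0.033, that of Ryr2 by 0.041 and that of Slc8a1 by 0.074, and in litter B alone that of Pln differed by 0.16 (exact permutation p = 0.10, the smallest possible there). Apart from the length trend, whose removal was built to take out that dependence, the causes were not tested.

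Leaving out each mouse in turn, the genotype difference ran from -0.029 to 0.037 for Pln, -0.038 to 0.015 for Orai1 and -0.0061 to 0.0501 for Sod2. Between litters it ran from -0.061 to 0.049 for Camk2d and -0.095 to 0.068 for Trdn, and between sexes from -0.0086 to 0.097 for Casq2 and -0.014 to 0.062 for Slc8a1. The interaction ran from -0.092 to 0.13 for Atp2a2, -0.091 to 0.18 for Casq2, -0.11 to 0.055 for Hrc, -0.072 to 0.031 for Jph2, -0.0072 to 0.13 for Pln, -0.033 to 0.11 for Ryr2, -0.14 to 0.0204 for Slc8a1 and -0.32 to 0.044 for Trdn. The ratio to Atp2a2 ran from 0.092 to 0.14 for Pln, -0.095 to -0.0095 for Ryr2 and -0.10 to 0.022 for Slc8a1. No paired analysis was possible because the labels give each mouse its own number, shared by no mouse of the other genotype.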
